A study of Homo sapiens with 2 samples.

Results

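The Krüppel-like factors are transcription factors with a shared block of zinc fingers at the carboxyl end, which binds GC-rich and CACCC-type elements in promoters and enhancers. The proteins differ outside that block: some carry activation domains, some recruit the corepressor CtBP, and others recruit the SIN3A corepressor complex. Several are switched on quickly by growth factors, hormones or shear stress, and in blood cells they are known for roles in quiescence, monocyte differentiation and erythroid maturation. The genes described here are the rows of the deposited table named KLF2, KLF3, KLF4, KLF6, KLF7, KLF9, KLF10, KLF11, KLF13 and KLF16, matched by symbol. They are 10 of 50868 genes listed. The other 8 Krüppel-like factors and the 9 related SP factors in the table are used for comparison.

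RNA was sequenced from KASUMI-1 cells, a line from human acute myeloid leukaemia in which RUNX1 is fused to RUNX1T1, after infection with a lentivirus labelled USP6, a deubiquitinase, or with one labelled pccl, taken here as the control. The promoter of the construct and the time after infection were not stated in the labels. The comparison asks how messages differ once USP6 is introduced, in a study whose title concerns the stability of RUNX1 fusion proteins. Each group was 1 library from this 1 line, so no difference below was tested against a spread between cultures. The tables hold 12518795 counts for the USP6 library and 12306442 for the pccl library, with 45.6% on mitochondrial genes in the USP6 library and 49.9% in the pccl library. The USP6 gene itself had 70 counts in the USP6 library, or 0.340 FPKM (fragments scaled to gene length and library size). It had 8 counts (0.0396 FPKM) in the pccl library, so it lay below 1 FPKM, the level taken here as expression, in both. Of 7 markers of KASUMI-1 and myeloid progenitors, 6 reached 1 FPKM. Among these, 3 were higher and 2 lower by 1.5-fold or more, beside 27.7% and 24.3% of all expressed genes. KIT had 39.99 FPKM in the USP6 library and 99.3 in the pccl library, and CD34 was 3.01-fold lower. MPO had 121.8 FPKM in the USP6 library and 27.4 in the pccl library, and ANPEP was 5.29-fold and CD33 2.11-fold higher. In bulk RNA, fewer cells that make a message and less of it per cell cannot be told apart.

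Markers of other cells moved beside the factors, and their part in the results below was not tested. For the counts in this paragraph, 27.7% of all expressed genes were higher and 24.3% lower by 1.5-fold or more. Of 7 monocyte and granulocyte markers, 3 reached 1 FPKM and 1 of these, ITGAM, was higher by 1.5-fold or more, with S100A8 and S100A9 at 0 counts in both libraries and summed levels of 21.8 FPKM in the USP6 library and 16.7 in the pccl library. Of 5 T cell markers, 3 reached 1 FPKM, CD3E and CD2 were higher, and the list summed to 30.2 FPKM in the USP6 library and 29.2 in the pccl library. Of 3 B cell markers, only CD79A reached 1 FPKM, and it was higher. The B cell list summed to 10.6 FPKM in the USP6 library and 2.68 in the pccl library. Of 3 megakaryocyte markers, 2 reached 1 FPKM and both were higher, with PF4 at 0. The megakaryocyte list summed to 36.97 FPKM in the USP6 library and 20.04 in the pccl library. Its median log2 ratio of 0.75 was -0.03 once GC content was allowed for. Of 5 stromal and epithelial markers, only EPCAM reached 1 FPKM, and it was lower, with COL1A2 at 0. The stromal and epithelial list summed to 8.80 FPKM in the USP6 library and 17.4 in the pccl library. None of the 3 endothelial markers reached 1 FPKM, with VWF and CDH5 at 0.

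Most Krüppel-like factors with reads were lower in the USP6 library, and KLF16 and KLF6 were the exceptions. Of the 10 genes, 9 had reads, and in 8 of these the 95% interval of the ratio from counting error alone lay on 1 side of 1. The share of all genes with such an interval was not counted, so this is not a result about the family. By the ratio of FPKM with at least 10 counts in the higher library, 6 were lower by 1.5-fold or more and 2 were higher. The same rule called 29.8% of 14046 genes lower and 35.7% higher, so differences of this size were common in these libraries in both directions. Only 5 of the 10 (KLF2, KLF3, KLF9, KLF11 and KLF16) reached 1 FPKM in either library, the level taken as expression. With log2((USP6 + 1)/(pccl + 1)) of FPKM, a scale that shrinks the differences of low genes, 2 of these 5 passed a limit of 1.5-fold downwards and 1 upwards, against 24.3% and 27.7% of 10153 expressed genes. Their median log2 ratio was -0.56, beside 0.06 over all expressed genes.

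**Figure D1:**
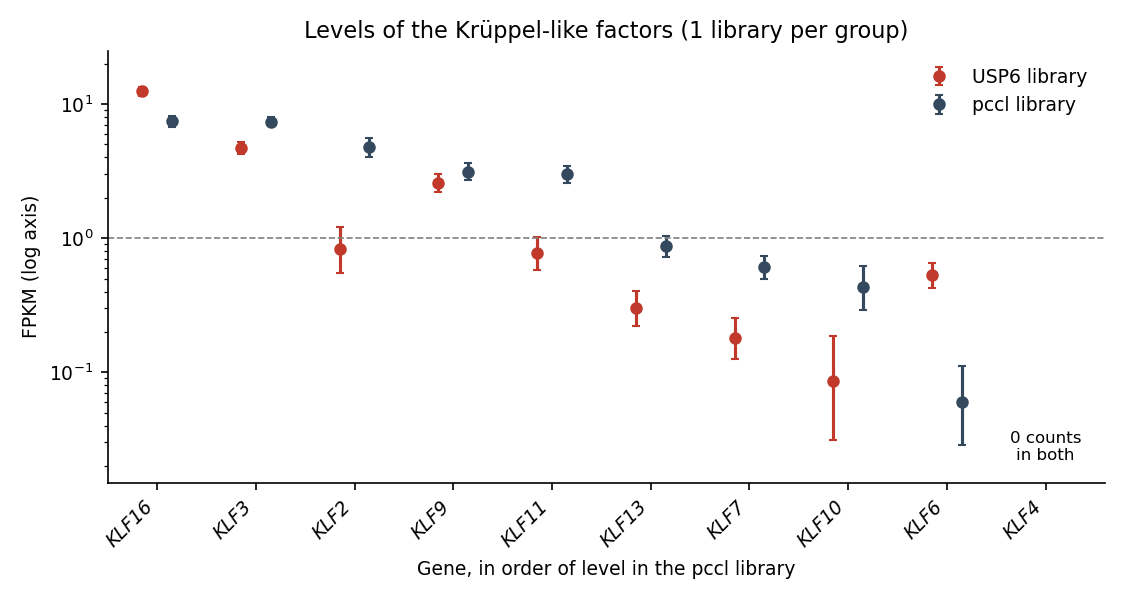
FPKM of each gene (log axis) in the USP6 and the pccl library, 1 library per group; bars are exact 95% Poisson intervals of the counts, which cover counting error only, and the dashed line marks 1 FPKM. KLF16 stood highest in both libraries, the largest drops on this axis were those of KLF2 and KLF10, and KLF4 had 0 counts in both.

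**Figure D2:**
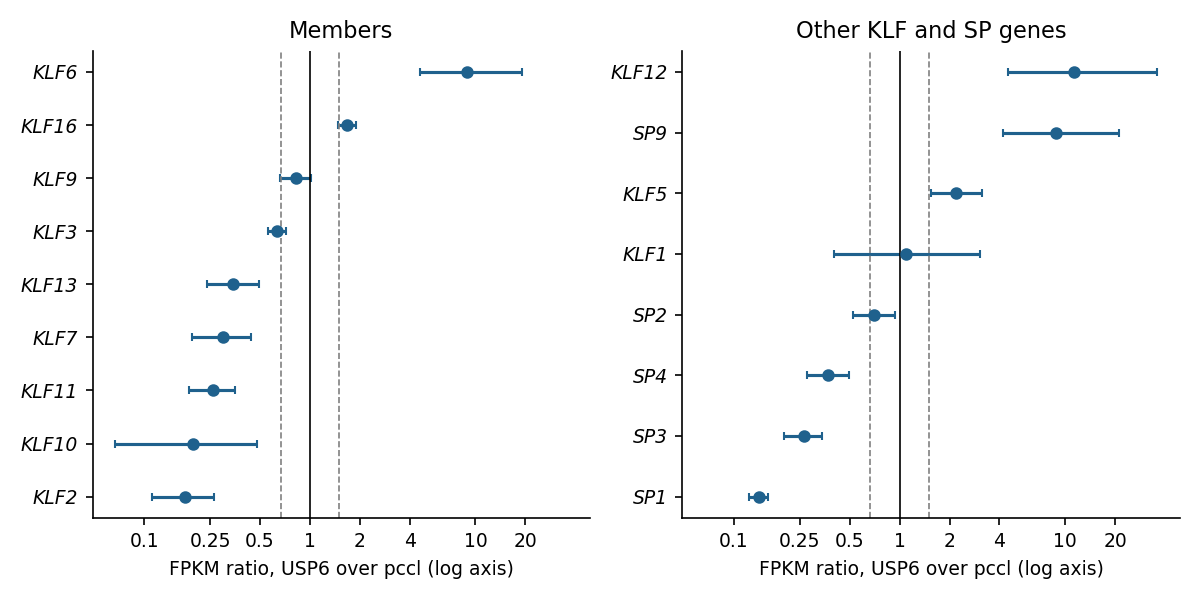
Ratio of FPKM, USP6 over pccl (log axis), for the 9 genes with reads (left) and the other KLF and SP genes with more than 3 counts in 1 library (right); bars are exact 95% intervals from the counts, dashed lines mark 1.5-fold in either direction. KLF6 (8.85) and KLF16 (1.67) lie right of 1 and the interval of KLF9 crosses 1.

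Start-site regions are shown for the gene with the lowest ratio (KLF2), for the pair that was higher (KLF16 and KLF6) and for KLF11, a lower gene of the SIN3A-binding class, so that genes of both directions can be set side by side. RefSeq promoter windows (GRCh38.p14) were matched by symbol for 8 of the 10 genes, all but KLF3 and KLF10. The stretches are those upstream bases that carry no annotated exon in GENCODE release 29, 5′ to 3′ on the strand of the gene. Capitals mark GC boxes (GGGCGG on either strand), which both KLF and SP proteins can bind, in KLF2 also a match to the MEF2 element, whose consensus is its own reverse complement, and in KLF11 also the cyclic AMP response element TGACGTCA. KLF2 is from chr19:16324576-16324816 (plus strand), KLF16 from chr19:1863580-1863829 (minus strand), KLF6 from chr10:3785282-3785459 (minus strand) and KLF11 from chr2:10043971-10044174 (plus strand).
KLF2: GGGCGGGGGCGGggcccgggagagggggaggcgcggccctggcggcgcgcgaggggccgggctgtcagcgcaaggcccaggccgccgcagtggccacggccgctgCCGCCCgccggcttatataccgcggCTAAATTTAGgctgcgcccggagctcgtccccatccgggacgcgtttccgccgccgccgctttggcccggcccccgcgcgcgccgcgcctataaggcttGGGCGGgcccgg
KLF16: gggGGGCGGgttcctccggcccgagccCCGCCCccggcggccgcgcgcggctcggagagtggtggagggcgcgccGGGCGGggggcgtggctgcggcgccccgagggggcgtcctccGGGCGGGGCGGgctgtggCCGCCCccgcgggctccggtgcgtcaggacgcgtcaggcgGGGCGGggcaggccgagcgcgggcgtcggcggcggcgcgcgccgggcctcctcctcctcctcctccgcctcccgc
KLF6: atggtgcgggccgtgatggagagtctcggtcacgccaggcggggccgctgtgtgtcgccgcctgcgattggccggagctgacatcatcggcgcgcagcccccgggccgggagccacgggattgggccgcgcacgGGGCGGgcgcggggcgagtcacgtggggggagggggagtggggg
KLF11: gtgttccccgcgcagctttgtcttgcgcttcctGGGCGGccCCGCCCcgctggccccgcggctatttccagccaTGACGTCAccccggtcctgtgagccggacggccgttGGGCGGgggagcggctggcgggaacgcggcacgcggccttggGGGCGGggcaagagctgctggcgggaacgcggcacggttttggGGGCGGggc
Over the whole 250 upstream bases, KLF16 held 7 GC-box matches in a window of 86.4% GC, KLF11 6 in the window shown (74.4% GC) and 2 in its other one (78.8% GC), KLF2 4 in a window of 80% GC, and KLF6 2 in one of 72.4% GC. Among the genes shown, those that were higher and those that were lower thus both held matches. Of the other genes, KLF13 held 3 and KLF4 4, while KLF7 held 4 in 1 window and 0 in its others. GC boxes were present in 42.6% of the 35116 windows of all genes. A MEF2 match, which begins 120 bases before the start site in KLF2, was present in 2.8% of them, and TGACGTCA, here in 1 of 2 KLF11 windows, in 1.65%. The window of KLF9 had 32.4% GC and no GC box. These are matches of letters and were not measured as binding.

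Of the activating members, KLF2 was the lowest relative to the control. KLF2 keeps T cells quiescent, directs their traffic through lymphoid tissue, and responds to flow in endothelium. It had 27 counts (0.835 FPKM) in the USP6 library and 151 counts (4.75 FPKM) in the pccl library, which is 5.69-fold lower with a counting interval of 3.76 to 8.92. Its log2 ratio of -1.65 lay below that of 96.9% of expressed genes. KLF2 (ENSG00000127528) lies on chromosome 19 from 16324817 to 16327874 on the plus strand, and its 4 listed pseudogenes had 0 counts in both libraries.

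KLF6 went the other way from a very low level. This factor is induced by injury and inflammatory signals in many cells. It had 90 counts (0.531 FPKM) in the USP6 library and 10 counts (0.0601 FPKM) in the pccl library, an 8.85-fold ratio with an interval of 4.60 to 19.1. Both levels lay under 1 FPKM, so KLF6 was in neither library an expressed gene by the limit used here.

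KLF7, known for its part in axon growth in mouse neurons, was also below 1 FPKM throughout. It had 33 counts (0.181 FPKM) in the USP6 library and 109 counts (0.608 FPKM) in the pccl library, 3.36-fold lower (2.26 to 5.12). KLF4, a factor of monocyte differentiation and of reprogramming to pluripotency, had 0 counts in both libraries, and a count of 0 allows up to 3 counts in each library. Among the activating members, then, the counts of KLF2 and KLF7 were lower, those of KLF6 higher, and KLF4 was not detected at this depth.

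KLF3 is the member that represses through CtBP, with known effects in B cells and red cell precursors. It had 407 counts (4.69 FPKM) in the USP6 library and 629 counts (7.38 FPKM) in the pccl library, 1.57-fold lower (1.39 to 1.79). Its log2 ratio of -0.56 lay just short of the limit of 1.5-fold once the pseudocount is added. It overlaps its antisense gene KLF3-AS1 by 688 bases, and that gene had 2 counts in the USP6 library and 1 in the pccl library.

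The SIN3A-binding members held both the highest gene and several low ones. KLF16, a GC-box-binding factor of this group, had 735 counts (12.4 FPKM) in the USP6 library and 432 counts (7.42 FPKM) in the pccl library. That is 1.67-fold higher (1.48 to 1.89), and 24.3% of expressed genes had a higher log2 ratio than its 0.67. KLF16 (ENSG00000129911) lies on chromosome 19 from 1852399 to 1863568 on the minus strand, and both listed genes that overlap it on the opposite strand had 0 counts. After the trend with GC content was taken out, as given further on, its log2 ratio was -0.19, so that its direction depended on that trend.

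KLF10 and KLF11 were first known as early genes of the TGF-beta response, and both were lower in the USP6 library. KLF11 had 51 counts (0.776 FPKM) in the USP6 library and 193 counts (2.99 FPKM) in the pccl library, 3.85-fold lower (2.81 to 5.35). KLF10 rested on 6 counts (0.0854 FPKM) in the USP6 library and 30 counts (0.435 FPKM) in the pccl library, 5.09-fold lower with a wide interval of 2.08 to 14.9. KLF11 thus crossed 1 FPKM between the libraries, whereas KLF10 stayed below it in both.

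KLF13, which binds the promoter of the chemokine gene CCL5 in T cells, had 44 counts (0.302 FPKM) in the USP6 library and 125 counts (0.873 FPKM) in the pccl library, 2.89-fold lower (2.03 to 4.17). Its known target CCL5 was on the other side, with 31.1 FPKM in the USP6 library and 23.6 in the pccl library (1.31-fold higher, 1.18 to 1.46). The log2 ratio of CCL5, 0.38, was short of the limit of 1.5-fold and was 0.21 after centring on GC. KLF9, which glucocorticoids and thyroid hormone induce, had 167 counts (2.58 FPKM) in the USP6 library and 200 counts (3.14 FPKM) in the pccl library. The ratio of 0.821 had an interval of 0.664 to 1.01, so a difference in KLF9 was not detectable at this depth, and 1.5-fold lower lay at the edge of what the counts allow.

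In the order of the levels, KLF6 moved by more ranks than any other of the 10 genes. In the pccl library KLF16 and KLF3 led with overlapping counting intervals (6.74 to 8.16 and 6.81 to 7.98 FPKM), followed by KLF2 and then by KLF9 and KLF11, whose intervals also overlapped. In the USP6 library KLF16 was alone at the top, KLF3 and KLF9 followed in separate steps, and KLF2 (0.550 to 1.22 FPKM) could not be told from KLF11 (0.577 to 1.02 FPKM). Between KLF11 and KLF6 the intervals of the USP6 library overlapped as well. KLF6 held rank 6 in the USP6 library and rank 9 in the pccl library, and KLF2 rank 4 in the USP6 library and rank 3 in the pccl library.

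The summed level of the 10 genes was 22.4 FPKM in the USP6 library and 27.7 FPKM in the pccl library, a ratio of 0.810. KLF16 made up 55.4% of that sum in the USP6 library and 26.8% in the pccl library. KLF2 made up 3.73% in the USP6 library and 17.2% in the pccl library. By class, the 4 activating members summed to 1.55 FPKM in the USP6 library and 5.42 in the pccl library. KLF2 alone gave 0.835 FPKM of the first sum and 4.75 of the second, while KLF6 was higher in the USP6 library. The 5 SIN3A-binding members summed to 16.2 FPKM in the USP6 library and 14.9 in the pccl library, a ratio of 1.09 that 4 other scalings placed between 1.003 and 1.074. The sum of this class hides opposite parts, since KLF16 was higher and KLF10, KLF11 and KLF13 were lower.

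**Figure D3:**
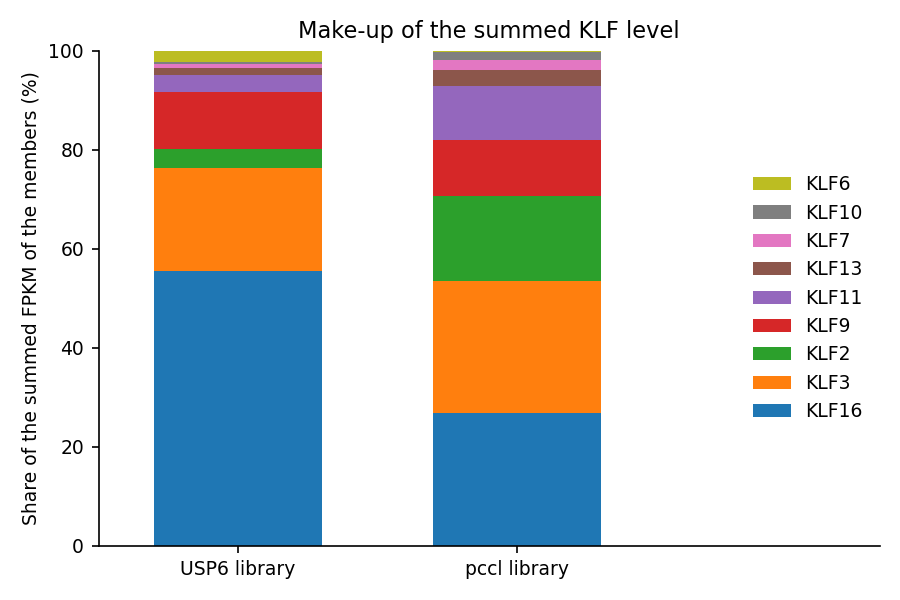
Share of the summed FPKM of the 10 genes held by each of the 9 genes with reads, in percent, for the USP6 and the pccl library. KLF16 held 55.4% in the USP6 library and 26.8% in the pccl library, and KLF2 held 3.73% in the USP6 library and 17.2% in the pccl library.

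Differences in these libraries moved with the GC content of the transcripts, and KLF2 lay far from that trend. Across 10105 expressed genes, which are not independent and share the same libraries, Spearman's rho of the log2 ratio with transcript GC (longest transcript) was 0.40. The median log2 ratio was 0.74 in the most GC-rich of 10 classes and -0.37 in the poorest. KLF2 (65.2% GC) and KLF16 (67.8% GC) both belong to the richest class of 1011 genes. KLF16 stood near the middle of that class, with 552 genes higher and 458 lower, whereas only 9 genes of the class had a lower log2 ratio than KLF2. Centred on the trend, the log2 ratio of KLF2 was -2.41 and that of KLF13 (57.6% GC) -0.92, against -1.65 and -0.52 as deposited. KLF11, in the fifth class, was almost the same after centring (-1.03) as before (-1.17), and KLF6 was at 0.70 after and 0.53 before. KLF3 was at -0.26 after centring. The part of GC content in any single difference was not tested.

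**Figure D4:**
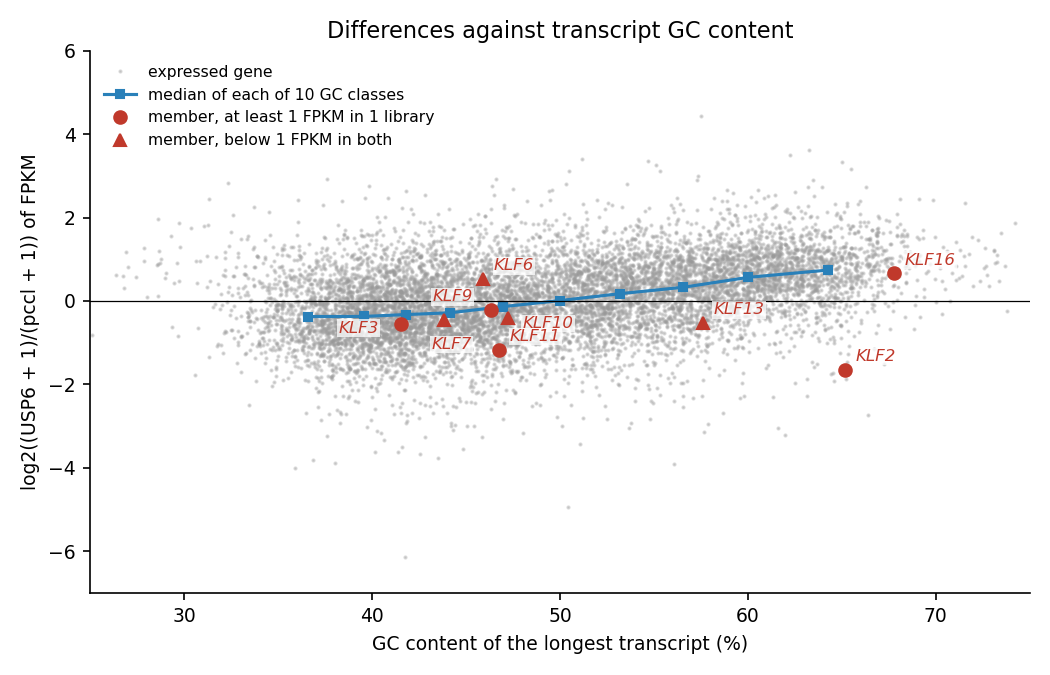
log2((USP6 + 1)/(pccl + 1)) of FPKM against GC content of the longest transcript in percent; grey points are the 10105 expressed genes with a GC value, blue squares the medians of 10 GC classes, red symbols the Krüppel-like factors with reads. KLF16 lies on the trend at 67.8% GC and KLF2 far below it at 65.2% GC.

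Among the other 8 Krüppel-like factors, KLF5 and KLF12 were higher in the USP6 library. KLF5, a factor of epithelial growth and of granulocyte differentiation, had 109 counts (1.20 FPKM) in the USP6 library and 49 counts (0.547 FPKM) in the pccl library, 2.19-fold higher (1.55 to 3.13). KLF12, a CtBP-binding repressor like KLF3, had 57 counts in the USP6 library and 5 in the pccl library (11.2-fold higher, 4.53 to 35.8) at under 1 FPKM in both. The erythroid factor KLF1 had 10 counts in the USP6 library and 9 in the pccl library, and KLF17 had 0 counts in the USP6 library and 3 in the pccl library. KLF8, KLF14, KLF15 and KLF18 had 0 counts in both.

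The SP factors, which bind the same GC boxes, were mostly lower, SP1 by the most. SP1, the widely expressed founder of that family, had 239 counts (1.92 FPKM) in the USP6 library and 1669 counts (13.7 FPKM) in the pccl library, 7.10-fold lower (6.20 to 8.17). SP3 was 3.80-fold lower (2.94 to 4.96) and SP4 2.70-fold lower (2.02 to 3.64), and SP2 had a ratio of 0.702 (0.525 to 0.935). SP9 was the exception, with 71 counts (2.22 FPKM) in the USP6 library and 8 counts (0.255 FPKM) in the pccl library, an 8.72-fold ratio (4.20 to 21.0). SP6 had 2 counts in each library, and SP5, SP7 and SP8 had 0 in both. Of 5 expressed SP genes, 3 were lower and 1 higher by 1.5-fold with the pseudocount added, beside 24.3% and 27.7% of all expressed genes. Their median log2 ratio was -0.65. Centred on GC, SP3 was at -0.48 and SP4 at -0.28, both short of 1.5-fold, SP2 passed it at -0.67, and SP1 stayed at -2.11. SP1 in the pccl library was above every Krüppel-like factor in FPKM, and in the USP6 library it was below KLF16, KLF3 and KLF9.

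Genes of the cofactors of Krüppel-like factors, which include corepressors and the coactivators EP300, CREBBP and KAT2B, differed in both directions. Of 9 expressed genes on that list, 3 passed 1.5-fold upwards and 1 downwards, beside 27.7% and 24.3% of all expressed genes, and the median log2 ratio of 0.27 was 0.06 after centring on GC. SIN3B, a scaffold of the SIN3 complex, had 2.58 FPKM in the USP6 library and 0.173 in the pccl library, 14.9-fold higher (10.4 to 22.2), while its relative SIN3A had 4.38 FPKM in the USP6 library and 3.48 in the pccl library. CTBP1 was 1.64-fold higher (1.496 to 1.80), though its log2 ratio after centring on GC was 0.05, and CTBP2, which overlaps ZRANB1 on the opposite strand, had a ratio of 0.772 (0.697 to 0.854). FHL3, a partner of KLF3, had 21.1 FPKM in the USP6 library and 10.3 in the pccl library (2.05-fold higher, 1.81 to 2.32), and the deacetylase gene HDAC2 was 1.86-fold lower (1.74 to 1.98). Centred on GC, FHL3 at 0.42 and HDAC2 at -0.44 were no longer past 1.5-fold, while SIN3B was at 1.06.

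The kinase pathway that turns on KLF2 and KLF4 through MEF2 factors was mixed. Its 5 expressed genes included 2 past 1.5-fold upwards and 1 downwards, beside 27.7% and 24.3% of all expressed genes. Their median log2 ratio was 0.19. MEF2A had 1.76 FPKM in the USP6 library and 0.567 in the pccl library (3.10-fold higher, 2.60 to 3.71), and MEF2D was 1.97-fold higher (1.63 to 2.38). MAP3K2, a kinase at the head of the pathway, was 3.63-fold lower (3.12 to 4.25). The ERK5 gene MAPK7 and the MEK5 gene MAP2K5 were under 1 FPKM. Centred on GC, MEF2A was at 1.12 and MEF2D at 0.30, the second no longer past 1.5-fold.

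Ubiquitin ligases known to act on Krüppel-like proteins included 2 that were lower. WWP1, which targets KLF2 and KLF5, had 1.51 FPKM in the USP6 library and 3.91 in the pccl library (2.60-fold lower, 2.15 to 3.14). WWP1 overlaps RMDN1 on the other strand, with 569 counts in the USP6 library and 344 in the pccl library, and the counts of such pairs may be mixed. FBXW7 was 3.57-fold lower (2.75 to 4.67), and its log2 ratio of -0.74 was -0.56 after centring on GC, just short of 1.5-fold. These were 2 of 5 expressed genes on the list, none was higher by 1.5-fold, and the median log2 ratio was -0.33. Over all expressed genes, 24.3% were lower and 27.7% higher by this limit. Protein levels were not measured, so these values say nothing of the stability of any factor.

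Of the listed targets of Krüppel-like factors, S1PR1, which KLF2 activates in T cells, had 0 counts in both libraries, as did THBD, LGALS3 and MAOB. CCL5 is described with KLF13 above.

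The hormone and growth factor responses that share members with this family had medians below 0. For the counts below, 24.3% of all expressed genes were lower and 27.7% higher by 1.5-fold. Of 4 expressed glucocorticoid response genes, FKBP5 was 49.7-fold lower (32.3 to 80.6) on 21 counts in the USP6 library and 1025 in the pccl library, TSC22D3 was 3.05-fold lower (2.60 to 3.60) and SGK1 3.27-fold higher (2.70 to 3.98). The list's median log2 ratio was -0.72, and KLF9, induced by the same hormone, had a log2 ratio of -0.21. Of 6 expressed genes of the TGF-beta response, 2 were lower and none higher by 1.5-fold, with a median of -0.40. The receptor gene TGFBR2 had 0.656 FPKM in the USP6 library and 4.49 in the pccl library, and the corepressor gene TGIF1 was 3.80-fold lower (3.10 to 4.67), on the same side as KLF10 and KLF11. Immediate early genes, the class to which KLF2, KLF4, KLF6 and KLF10 belong, were split, with 4 lower and 3 higher of 9 and a median of -0.54. JUN was 2.06-fold lower (1.88 to 2.27) and EGR1 3.41-fold lower (2.04 to 5.93), while MYC was 7.15-fold (4.56 to 11.7) and IER5 2.15-fold higher (1.86 to 2.48). JUND had 217.6 FPKM in the USP6 library and 116.9 in the pccl library, and its log2 ratio of 0.89 was -0.05 after centring on GC. Nothing particular to any of these lists was tested.

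**Figure D5:**
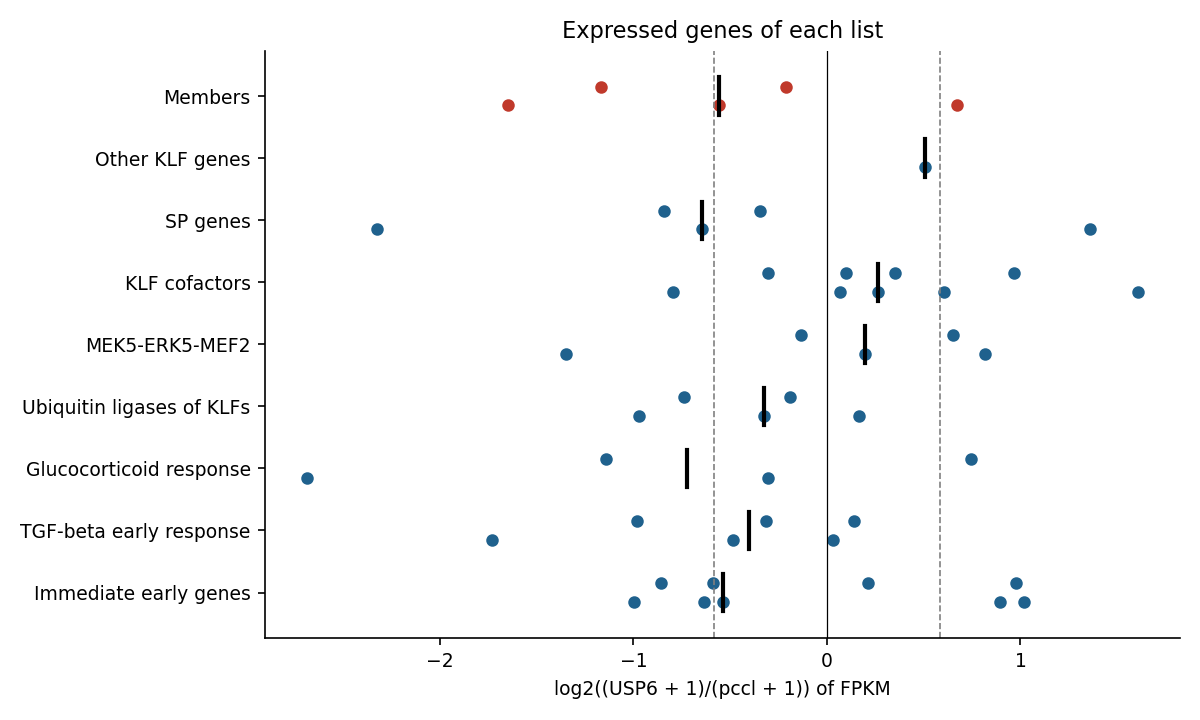
log2((USP6 + 1)/(pccl + 1)) of FPKM for each expressed gene of the lists shown (points, offset upwards and downwards only to keep them apart), with the median of each list as a black bar and dashed lines at 1.5-fold. The Krüppel-like factors and SP genes have medians of -0.56 and -0.65, the cofactor list one of 0.27.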

How the data were processed

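RNA of KASUMI-1 cells was sequenced as 1 library per group, and the labels and column names assign each library to the USP6 or the pccl group. HISAT2 2.0.4, StringTie 1.3.3b and edgeR are listed, per the submitters' processing notes, with no roles. The genome build, annotation, strandedness and RNA selection are not given in the sources used here, so reads of overlapping genes on opposite strands may not be separated. Whole-number counts per gene were deposited. In the deposited FPKM values each count is scaled by a length of the gene and the total of its column, with the same length in both libraries within 0.1% for all 16030 genes counted in both. Of 50111 identifiers found in GENCODE release 29 (GRCh38), 94.8% had the identical locus.

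Identifiers with 1 symbol were summed to 50464 symbols. Expressed genes had at least 1 FPKM in the higher library, and differences were log2 ratios of FPKM + 1 with a limit of 1.5-fold. Folds are ratios of FPKM with exact conditional (Clopper-Pearson) 95% intervals from the counts, and none is given where both libraries had at most 3 counts. All intervals cover counting error only, and copies made by PCR can make them too narrow. With 0 residual degrees of freedom, no test was made. GC centring used a lowess with span 0.3 over expressed genes, and rescaled values kept the geometric mean of both libraries.

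Named are all 10 members, the other KLF and SP genes, and from each further list the expressed genes at or past 1.5-fold, or the 5 of largest log2 ratio; values given for other list genes (CCL5, SIN3A, CTBP2) were chosen after they were seen. Some genes of the marker and target lists are not reported here. Members and lists were chosen with earlier results of these data known. Steps were tested on simulated data. Software was Python 3.11.15 with pandas 2.3.3, NumPy 2.4.6, statsmodels 0.14.6, SciPy 1.17.1 and matplotlib 3.10.9, and edgeR 4.0.16 in R 4.3.3 for the trimmed mean factors.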

Additional observations from a re-analysis of the deposited data

How the results depend on the processing

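Of the 10 genes, 8 kept the sign of their log2 ratio under 9 other pseudocounts, scalings and centrings. KLF4, with no counts, stayed at 0 under the 7 settings applied to it, which left out the centrings on the median and on GC. KLF16 was at -0.19 once centred on GC, as JUND was at -0.045. The ranges over these settings were -2.41 to -0.74 for KLF2, -1.82 to -0.47 for KLF11 and 0.13 to 1.98 for KLF6. The medians of the members, of the KLF and SP families and of the further gene lists kept their sign under these settings. The marker lists were not put through all of them, and the megakaryocyte median of 0.75 was -0.03 after centring on GC.

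The count of members at or past 1.5-fold upwards, 1 as reported, was 0 with a pseudocount of 5 FPKM, with the trimmed mean of M values, with depth from nuclear genes, after centring on GC and with a limit of 2-fold. The count downwards, 2 as reported, was 1 with a pseudocount of 5 FPKM and 0 with a filter of 5 FPKM, and 3 with pseudocounts of 0.1 and 0.5 FPKM, the trimmed mean, the median of ratios, depth from nuclear genes and a median log2 ratio of 0. Over all genes, 2808 higher and 2465 lower became 1096 and 934 with a pseudocount of 5 FPKM, 1358 and 1183 with a filter of 5 FPKM, and 1396 and 1156 with a limit of 2-fold. A larger pseudocount, filter or limit lowers such counts by construction. The ratio without a pseudocount and with at least 10 counts, chosen after seeing the data, gave 2 members higher and 6 lower, and 5009 genes higher and 4192 lower. Higher genes were 53.3% of those called as reported and 46.9% with depth from nuclear genes. No paired analysis was possible because each group holds 1 library.

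Depth limits KLF10 (6 and 30 counts), KLF6 and KLF4 most, and no depth replaces the missing replicates.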
